A study of Mus musculus with 14 samples.

Results

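The genes described here are lymphocyte genes in mammary epithelial cell libraries from mice that overexpress Usp22. They were picked by name from the deposited table, and 8 of the 9 named genes were analysed out of 16124 genes in all. Of these, 3 belong to B cells (Cd79a, Cd79b and Ighm) and 5 to T cells (Cd3e, Cd3g, Cd3d, Cd2 and Cd8a), while Ms4a1 was not analysed here. RNA was sequenced from 7 wild type (WT) and 7 Rosa26KI-Usp22 OE/OE nulliparous females aged 3.5 months, with 1 library per mouse and each OE/OE mouse matched to a WT littermate. The littermate pairs carry the numbers 1, 3, 4, 5, 6, 7 and 8. The OE/OE mice are homozygous for a Usp22 transgene placed in the ROSA26 locus, whose STOP cassette was removed with Zp3-cre. The transgene is therefore switched on in all tissues, leukocytes and stroma included, and not in the epithelium alone. Mammary glands number 2, 3 and 4 of both sides were digested, red blood cells were lysed, and epithelial organoids were pelleted by short spins before they were brought to single cells. Lymph nodes were taken out of the number 4 glands. No sort for epithelial or against blood cells is described.

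B cells recognise antigen through an immunoglobulin in their membrane. Ighm encodes the constant part of the IgM heavy chain, and Cd79a and Cd79b encode the pair of signalling chains that stay attached to it. Antibody-secreting plasma cells keep making immunoglobulin while they lose much of the B cell surface apparatus. T cells recognise antigen through a T cell receptor whose signals pass through the CD3 chains, encoded by Cd3e, Cd3g and Cd3d. Cd2 encodes an adhesion receptor of T cells and natural killer cells, and Cd8a encodes a chain of the coreceptor of cytotoxic T cells that some dendritic cells also carry. The mammary gland holds lymphocytes within its ducts and stroma, and lymph nodes lie in its fat pads.

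Cd79a lies on chromosome 7 (chr7:24897381-24902197, plus strand, GRCm38), Cd79b on chromosome 11 (chr11:106311341-106314762, minus strand) and Ighm on chromosome 12 (chr12:113418558-113422730, minus strand), within the immunoglobulin heavy chain locus. The 3 CD3 genes form a cluster on chromosome 9, with Cd3g at chr9:44969572-44980431 (minus strand), Cd3d at chr9:44981786-44987339 (plus strand) and Cd3e at chr9:44998740-45009627 (minus strand). Cd3g and Cd3d are divergent neighbours, 1354 bases apart, and 11400 bases separate Cd3d from Cd3e. Cd2 is at chr3:101275899-101287939 (minus strand) and Cd8a at chr6:71373427-71379173 (plus strand). Exons of Cd3e share 135 bases with the antisense gene Gm48719, and whether the counting used strand is not given in the sources used here.

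The stretches just upstream of Cd79a, Cd3g and Cd3d are shown because Cd79a had the largest excess in a single mouse and because the divergent pair Cd3g and Cd3d differed between litters, as described further on. They come from the RefSeq promoter table (GRCm38.p6), are written 5′ to 3′ on the strand of the gene and end before the first annotated transcript base. Capitals mark the E-box CAGGTG or its reverse complement CACCTG, which lymphoid E proteins can bind. The coordinates are chr7:24897247-24897380 for Cd79a, chr9:44980432-44980681 for Cd3g and chr9:44981536-44981785 for Cd3d.
Cd79a: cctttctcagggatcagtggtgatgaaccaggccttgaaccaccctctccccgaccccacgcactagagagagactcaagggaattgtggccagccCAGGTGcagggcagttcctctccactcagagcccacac
Cd3g: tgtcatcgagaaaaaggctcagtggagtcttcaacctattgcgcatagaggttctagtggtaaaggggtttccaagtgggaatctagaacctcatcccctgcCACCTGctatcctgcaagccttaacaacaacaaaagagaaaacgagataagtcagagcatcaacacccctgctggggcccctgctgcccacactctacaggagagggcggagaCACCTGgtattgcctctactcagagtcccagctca
Cd3d: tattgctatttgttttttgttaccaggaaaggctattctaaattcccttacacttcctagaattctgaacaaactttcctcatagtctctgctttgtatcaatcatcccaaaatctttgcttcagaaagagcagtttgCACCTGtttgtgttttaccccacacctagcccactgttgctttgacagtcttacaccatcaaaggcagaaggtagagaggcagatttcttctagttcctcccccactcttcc
RefSeq windows of 300 bases (250 before and 50 after the start) were matched for 5 of the 8 genes (Cd79a, Cd3e, Cd3g, Cd3d and Cd8a). The E-box was found on either strand in 4 of these 5 windows, all but that of Cd8a, and in 20.2% of all 32851 windows. The ETS core AGGAAG (either strand) was found in 3 of the 5, those of Cd79a, Cd3e and Cd3d, and in 35.4% of all windows. The RUNX core TGTGGT and the octamer ATTTGCAT (each on either strand) were found in 0 of the 5 and in 16.8% and 1.74% of all windows. A match is a run of letters and not a measured binding site.

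Values are normalized counts, that is, fragments per gene divided by a size factor of the library, and the fragments behind them were recovered. The libraries held 20125106 to 41835978 fragments on genes (median 37546978 in WT and 38130881 in OE/OE), and the shallowest was that of the WT mouse of pair 1. Usp22 was at 3499.98 to 5379.67 normalized counts in WT and 74948 to 144288 in OE/OE, so that each library matched its genotype. The epithelial marker Krt8 was at 99133 to 180962, whereas the lymphocyte genes rested on few fragments, with a lowest count per library of 3 (Cd3d and Cd2) to 75 (Ighm). The WT mouse of pair 1 stood apart in all 8 lymphocyte genes, and the genotype and pair comparisons of these genes are therefore also given without pair 1. In RNA from mixed cells, fewer cells of a type and less RNA per cell cannot be told apart.

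Per kilobase of exon, the level of Ighm was the highest of the 8 genes, at a median of 94.4 normalized counts per kb over the 13 libraries other than the WT mouse of pair 1. It was followed by Cd79a (12.01 per kb), Cd2 (8.32), Cd3g (6.64), Cd79b (6.50), Cd3d (4.28), Cd3e (4.18) and Cd8a (4.13), while Krt8 was at 63777 per kb. All lymphocyte genes were thus scarce beside the epithelial keratin.

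Cd79a was at 676 normalized counts in the WT mouse of pair 1 and at 15.0, 15.9, 16.3, 22.2, 26.4 and 12.4 in the WT mice of pairs 3, 4, 5, 6, 7 and 8. In the OE/OE mice of pairs 1, 3, 4, 5, 6, 7 and 8 it was at 23.3, 23.6, 8.63, 7.55, 17.5, 24.5 and 19.2. Apart from that 1 WT mouse, the genotypes overlapped, and its OE/OE littermate lay within the range of the other mice. For Cd79b the WT mouse of pair 1 was at 252 and the other WT mice, in the same order of pairs, at 19.1, 11.5, 6.99, 9.37, 9.15 and 9.31. The OE/OE mice were at 19.1, 8.48, 26.9, 11.9, 7.88, 9.07 and 5.01 for Cd79b. The same mouse was again alone at the top. Ighm was at 3205 in the WT mouse of pair 1 and at 236, 835, 148, 314, 151 and 116 in the other WT mice. In OE/OE mice Ighm was at 153, 195, 92.1, 178, 231, 598 and 128. Ighm differed from the signalling chains in that the WT mouse of pair 4 (835) and the OE/OE mouse of pair 7 (598) also stood above the rest.

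Of the T cell receptor chains, Cd3g was at 90.3, 59.9, 37.1, 10.1, 23.0, 11.2 and 17.1 normalized counts in the WT mice of pairs 1, 3, 4, 5, 6, 7 and 8. In their OE/OE littermates it was at 64.6, 66.0, 20.1, 6.47, 49.0, 18.1 and 21.7. Both mice of pairs 1 and 3 were above the other 10 mice, and both mice of pair 5 were the lowest. Cd3d was at 73.3, 30.8, 6.19, 7.77, 11.1, 3.05 and 6.20 in WT and at 25.4, 28.3, 17.3, 3.24, 14.9, 5.44 and 3.34 in OE/OE. The 4 mice of pairs 1 and 3 were again above the other 10. Cd3e was at 92.0, 28.3, 13.3, 19.4, 16.2, 6.10 and 17.1 in WT and at 32.8, 32.0, 16.3, 10.8, 29.8, 15.4 and 18.4 in OE/OE, where the OE/OE mouse of pair 6 reached the level of pair 3.

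Cd2 was at 149.9 normalized counts in the WT mouse of pair 1, at 25.8, 11.5, 12.4, 14.5, 12.2 and 4.65 in the other WT mice, and at 21.2, 29.2, 18.2, 10.8, 21.01, 15.4 and 12.5 in OE/OE mice. Cd8a was at 83.5 in the WT mouse of pair 1, at 18.3, 15.0, 14.8, 10.2, 13.2 and 15.5 in the other WT mice, and at 19.1, 21.7, 8.63, 5.39, 12.3, 17.2 and 25.9 in OE/OE mice. For both genes the WT mouse of pair 1 stood alone at the top, and the other WT mice overlapped with the OE/OE mice.

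**Figure D1:**
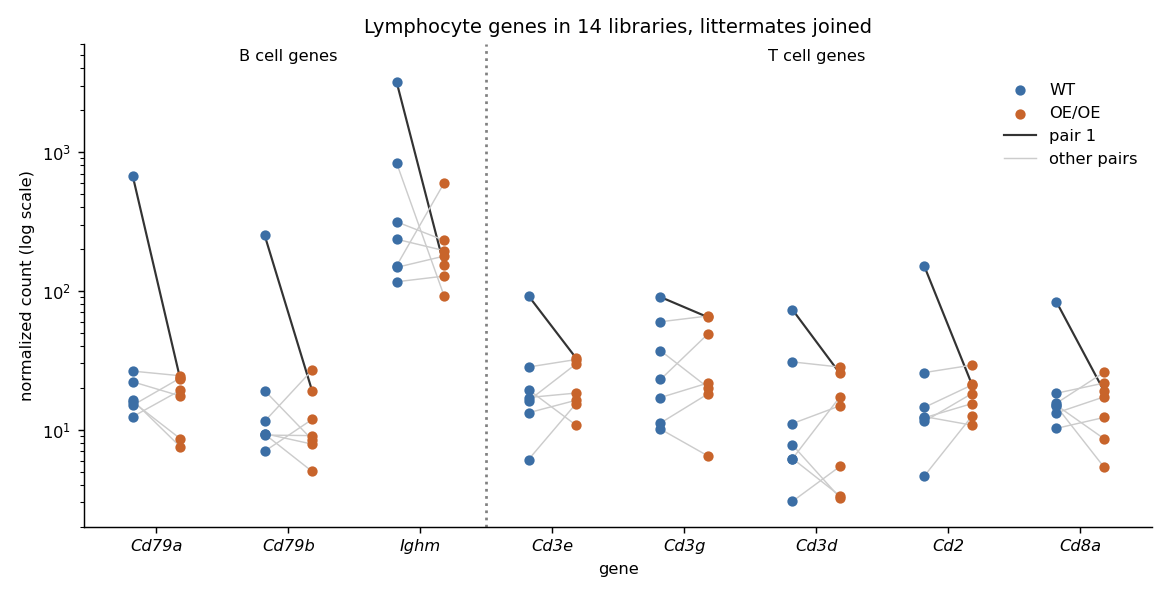
Normalized counts (log axis) of the 3 B cell genes and 5 T cell genes in 7 WT (blue) and 7 OE/OE (orange) mice, 1 point per mouse, with littermates joined by lines and pair 1 in black. The WT mouse of pair 1 is the highest point for every gene, at 676 for Cd79a against at most 26.4 in the other 13 mice, and for Cd3g at 90.3 against at most 66.0.

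In 8 of the 8 lymphocyte genes the maximum over all 14 libraries was in the WT mouse of pair 1, which held for 3.83% of all genes. It was at least 4-fold above the median of the other 6 WT mice in 8 of 8, against 1.03% of all genes. The excess differed between the B and the T cell genes. Over the median of the other WT mice, Cd79a was 41.99-fold, Cd79b 27.0-fold and Ighm 16.6-fold higher. The T cell genes were 12.2-fold (Cd2), 10.5-fold (Cd3d), 5.61-fold (Cd8a), 5.53-fold (Cd3e) and 4.51-fold (Cd3g) higher, so that the ranges of the B and T cell genes did not overlap in this mouse. Against its own OE/OE littermate the folds were 29.0 for Cd79a, 13.2 for Cd79b and 21.01 for Ighm, and 1.40 for Cd3g, 2.80 for Cd3e, 2.88 for Cd3d, 4.38 for Cd8a and 7.08 for Cd2. These folds describe 1 library and have no replicate.

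As shares of the library, Cd79a and Cd79b together had 27.1 CPM (counts scaled to the library total) in the WT mouse of pair 1 and 0.528 to 1.16 (median 0.892) in the other 13 libraries. The 5 T cell genes together had 14.3 CPM against 0.998 to 4.93 (median 2.33). For each fragment of the T cell genes there were 1.90 fragments of Cd79a and Cd79b in this library, and 0.181 to 0.778 in the other 13. The B cell receptor chains Cd79a and Cd79b thus outweighed the 5 T cell genes in 1 library only. With Ighm included, fragments of the B cell genes exceeded those of the T cell genes in each of the 14 libraries.

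Other gene groups were also set apart in this mouse. Ccr7, which encodes a homing receptor of naive lymphocytes, was at 741 normalized counts, against at most 90.0 in the other 13 libraries. Of 6 genes listed for lymph node stroma and lymphoid chemokines, 3 were highest in this mouse. These were Ccl21a at 659 (1.92 to 62.2 in the others), Cxcl13 at 295 (4.17 to 76.3) and Ltb at 114. Ccl19 (42.6), Madcam1 (30.7) and Tnfsf11 (47.7) were highest in other mice, at 56.6, 54.6 and 712. The sum of this list was 1189 in the WT mouse of pair 1, 72.2 to 221 in the other WT mice and 70.1 to 797 in OE/OE mice. Tnfsf11 in the OE/OE mouse of pair 4 made the upper end. All 10 pan-leukocyte genes were highest in the WT mouse of pair 1 (list sum 7163, against 2520.3 to 3702 in the other WT mice and 2284 to 4624 in OE/OE mice). Ptprc, the common leukocyte antigen, was at 995 against 132 to 619. The median log2 difference of this mouse from the median of the other WT mice was 1.46 for the pan-leukocyte list, 0.06 for 10 macrophage genes and 0.31 for 6 epithelial genes, against 0.0066 over all genes. It was -0.69 for 6 fibroblast genes, -0.59 for 6 adipocyte genes and -0.29 for 6 endothelial genes. For 2 neutrophil genes it was 1.76 (S100a8 3.42, Csf3r 0.11), for 4 dendritic cell genes 0.39 and for 5 red cell genes -0.60. The macrophage list sum was 23282 in this mouse, of which Cd14 gave 17140. That sum was 11185 to 19706 in the other WT mice and 10397 to 25381 in OE/OE mice. None of the 6 lymph node genes was at 0 in any library, and the part of lymph node tissue, of blood or of the low depth in the values of this mouse was not tested.

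**Figure D2:**
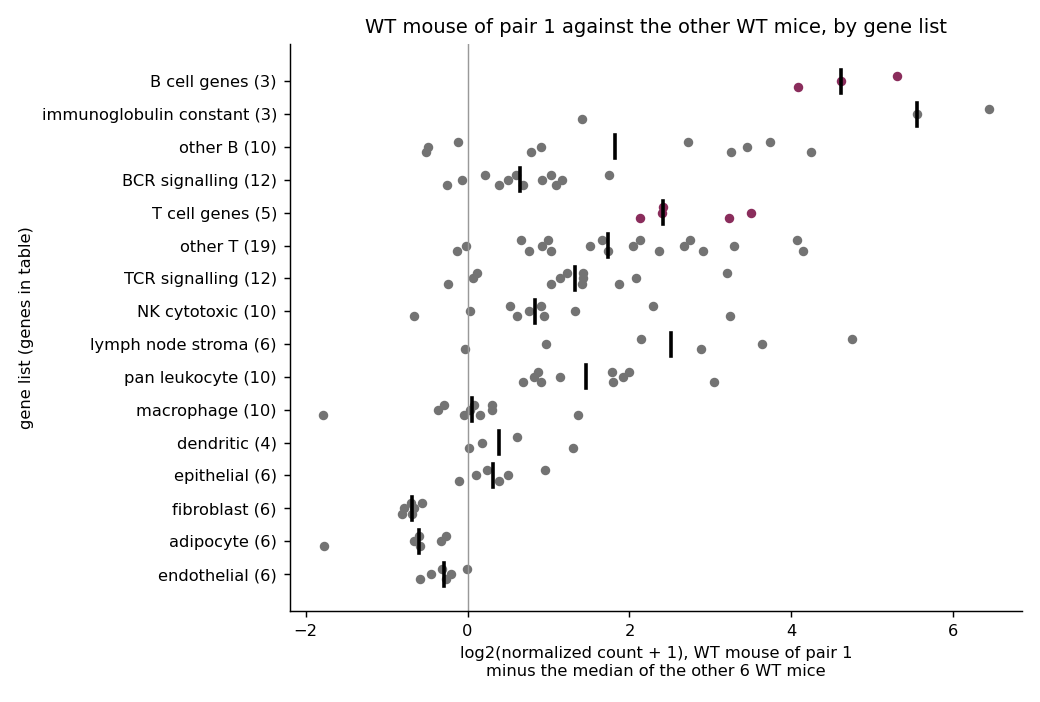
Difference in log2(normalized count + 1) between the WT mouse of pair 1 and the median of the other 6 WT mice, 1 point per gene, by gene list, with a black bar at the median of each list. The 3 B cell genes lie between 4.08 and 5.31 and the 5 T cell genes between 2.13 and 3.50, while the fibroblast, adipocyte and endothelial medians lie below 0.

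The second feature of the B cell genes was that, outside the WT mouse of pair 1, Ighm followed Igkc and Jchain more closely than Cd79a or Cd79b. In the WT mouse of pair 4, with Ighm at 835, the light chain gene Igkc was at 492 and Jchain, which encodes the chain joining IgM and IgA polymers, at 111, the highest values of both genes outside the WT mouse of pair 1. Cd79a (15.9) and Cd79b (11.5) were within the range of the other mice there. In the OE/OE mouse of pair 7, with Ighm at 598, Igkc was at 193 and Jchain at 33.6, while Cd79a was at 24.5 and Cd79b at 9.07. Over the 13 libraries without the WT mouse of pair 1, the correlation of log2 values was 0.90 between Ighm and Jchain, 0.77 between Ighm and Igkc, 0.31 between Ighm and Cd79a and 0.03 between Igkc and Cd79a. The correlation was -0.12 between Ighm and Cd79b and -0.41 between Cd79a and Cd79b, so that Cd79a and Cd79b did not follow each other either. These correlations are descriptions over libraries that share litters. The lower counts of Cd79a and Cd79b (medians of 21.5 and 10.5 fragments, against 198.5 for Ighm) also bear on them. Of 5 plasma cell genes in the table, none was highest in the WT mouse of pair 1, whereas Igkc, Igha and Jchain all were. Prdm1, Irf4, Derl3, Fkbp11 and Eaf2 were at 244, 55.7, 7.95, 531 and 77.8 in the WT mouse of pair 4. In the OE/OE mouse of pair 7 they were at 414, 455, 12.7, 294 and 28.1. Prdm1 and Fkbp11 did not fall below 244 and 151 in any library, and which cells these counts came from was not tested.

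**Figure D3:**
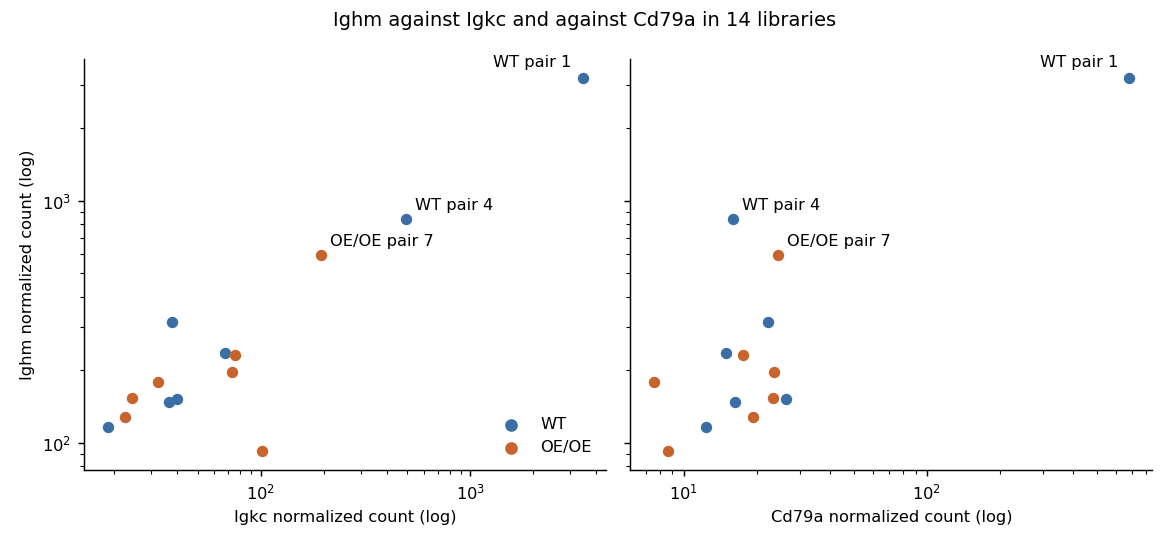
Ighm against Igkc (left) and against Cd79a (right) in 14 libraries, as normalized counts on log axes, with WT mice in blue and OE/OE mice in orange. The WT mouse of pair 4 (Ighm 835) and the OE/OE mouse of pair 7 (598) are raised in Igkc, at 492 and 193, and lie among the other mice in Cd79a, at 15.9 and 24.5.

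The first comparison asked whether lymphocyte transcripts differed with the genotype. At the threshold of the study, an unadjusted p of at most 0.05, 0 of the 8 genes were called by limma fitted to log2(normalized count + 1) with littermates blocked. This threshold was passed by 3.81% of all genes, 1.95% higher and 1.85% lower in OE/OE. None of the 8 genes was lower in OE/OE in 6 or 7 of the pairs, as 6.79% of all genes were. All 3 B cell genes had estimates below 0 with wide intervals. Cd79a had a log2 fold change of -0.84 (standard error 0.58, 95% interval -2.14 to 0.47, exact two-sided sign-flip p = 0.281) and was lower in OE/OE in 5 of 7 pairs. The estimate was -0.56 for Cd79b (standard error 0.50, exact sign-flip p = 0.422, lower in 5 of 7 pairs) and -0.84 for Ighm (standard error 0.66, exact sign-flip p = 0.328, lower in 4 of 7 pairs). These estimates rested largely on the WT mouse of pair 1. Without pair 1 they were -0.17 for Cd79a, -0.04 for Cd79b and -0.25 for Ighm. Again 0 of 8 genes were called, while 7.42% of all genes were. For Ighm, pair 4 (-3.17) and pair 7 (1.97) also moved the estimate, to -0.45 without pair 4 and -1.31 without pair 7.

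The T cell genes lay close to 0. The log2 fold change was 0.05 for Cd3e (95% interval -0.66 to 0.76), 0.04 for Cd3g (-0.54 to 0.62), -0.14 for Cd3d (-0.93 to 0.65) and -0.01 for Cd2 (-0.96 to 0.94), with exact sign-flip p values of 0.859, 0.891, 0.719 and 0.984. For Cd8a it was -0.37 (standard error 0.35, 95% interval -1.16 to 0.42, exact sign-flip p = 0.406). All 5 intervals include 0 and are wide, so that a p above the threshold does not show equal levels. Without pair 1 the largest of the 5 estimates was that of Cd2, at 0.45, and it was not called. After adjustment over all genes, each of the 8 genes had a limma adjusted p of 1.00. Of all genes, 0.0124% (2 genes) passed at an adjusted p under 0.05. The quasi-likelihood test of edgeR and the Wald test of DESeq2 on the recovered fragments also called 0 of 8 genes at the same threshold.

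The median log2 fold change was -0.84 over the 3 B cell genes and -0.01 over the 5 T cell genes, against -0.0015 over all genes. Whether the genotype difference itself differed between the classes was tested on 1 gene of each. The log2 difference between Cd79a and Cd3e was lower in OE/OE than in WT by a mean of -0.89 ± 1.32 (SD, n = 7 pairs), in 5 of 7 pairs, with p = 0.109 by exact sign flips of the 7 pair differences (two-sided, smallest possible p 0.0156). Pair 1 had the lowest value, -3.34, and the rest ranged from -1.32 to 0.49. With each pair left out in turn the mean stayed between -1.12 and -0.48. The adipocyte gene list, in which 4 of 6 genes were lower in OE/OE (median log2 fold change -1.30), was also added to the model. With it, Cd79a (-2.12), Cd79b (-1.91), Cd3d (-0.99) and Cd2 (-1.14) were called lower, beside 20.8% of all genes. Without pair 1 the same model called none of these 4 and called Ighm higher (2.43), beside 22.5% of all genes.

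**Figure D4:**
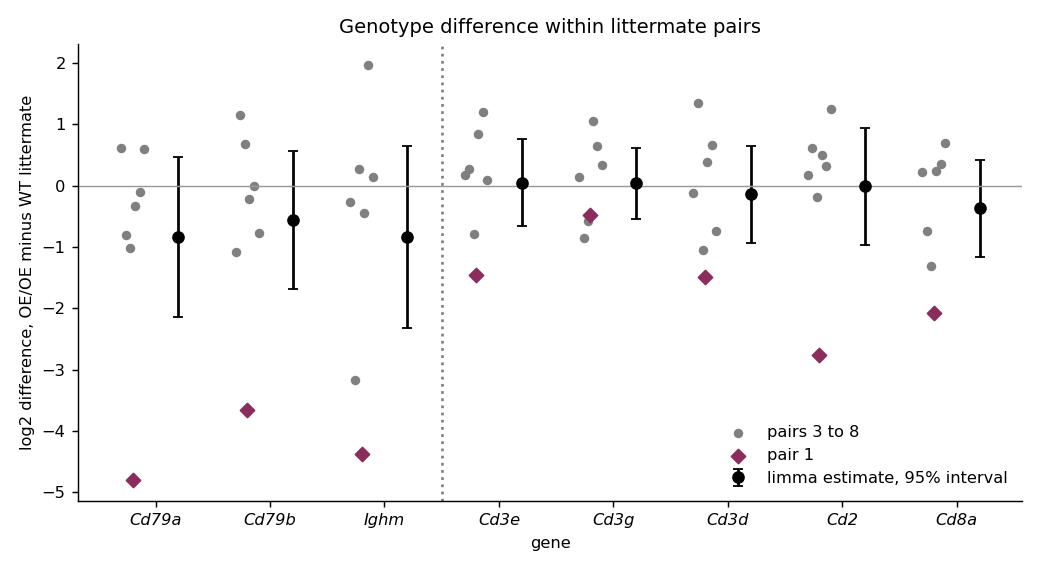
Log2 difference between each OE/OE mouse and its WT littermate for the 8 genes, with pair 1 as a diamond, the other 6 pairs as grey points, and the limma estimate with its 95% interval in black. For the B cell genes pair 1 lies at -4.80 (Cd79a), -3.66 (Cd79b) and -4.38 (Ighm), and every interval includes 0.

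The second comparison asked whether littermates resembled each other in these genes, by limma's moderated F test of the 6 pair coefficients. Cd3g and Cd3d differed between pairs (limma adjusted p = 0.00918 and 0.0224 over all genes), so that 2 of 8 lymphocyte genes were called, beside 33.3% of all genes. That share of members is not above the background. Of the spread of log2 values, 90.8% lay between pairs for Cd3g and 85.3% for Cd3d. The share was 74.4% for Cd3e (limma adjusted p = 0.0958), 65.4% for Cd2 (0.167) and 60.9% for Cd8a (0.211). For the B cell genes it was 62.5% for Cd79b (limma adjusted p = 0.154), 55.7% for Cd79a (0.198) and 31.2% for Ighm (0.622). The difference in these shares between T and B cell genes was not tested.

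Pair 1 had the highest mean log2 value for 8 of 8 genes. Pair 3 came next for Cd3e, Cd3g, Cd3d and Cd2, and pair 8 for Cd8a. Among the B cell genes no single pair came next, as it was pair 7 for Cd79a and Ighm and pair 4 for Cd79b. With pair 1 left out, Cd3g (limma adjusted p = 0.0226, 87.5% between pairs) and Cd3d (0.0449, 83.1%) were still called, beside 35.8% of all genes. With pair 3 left out, Cd3d had a limma adjusted p of 0.0532 and Cd3g alone was called, beside 27.2% of all genes. The quasi-likelihood test of edgeR on the recovered fragments called Cd79a (adjusted p = 0.0333) and Cd79b (0.0380) as well, 4 of 8 genes beside 33.4% of all genes. Without pair 1 edgeR again called Cd3g and Cd3d only, beside 35.2% of all genes, so that the calls of Cd79a and Cd79b needed pair 1, where only the WT mouse was high. Litter and preparation share a number in this design and cannot be told apart.

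**Figure D5:**
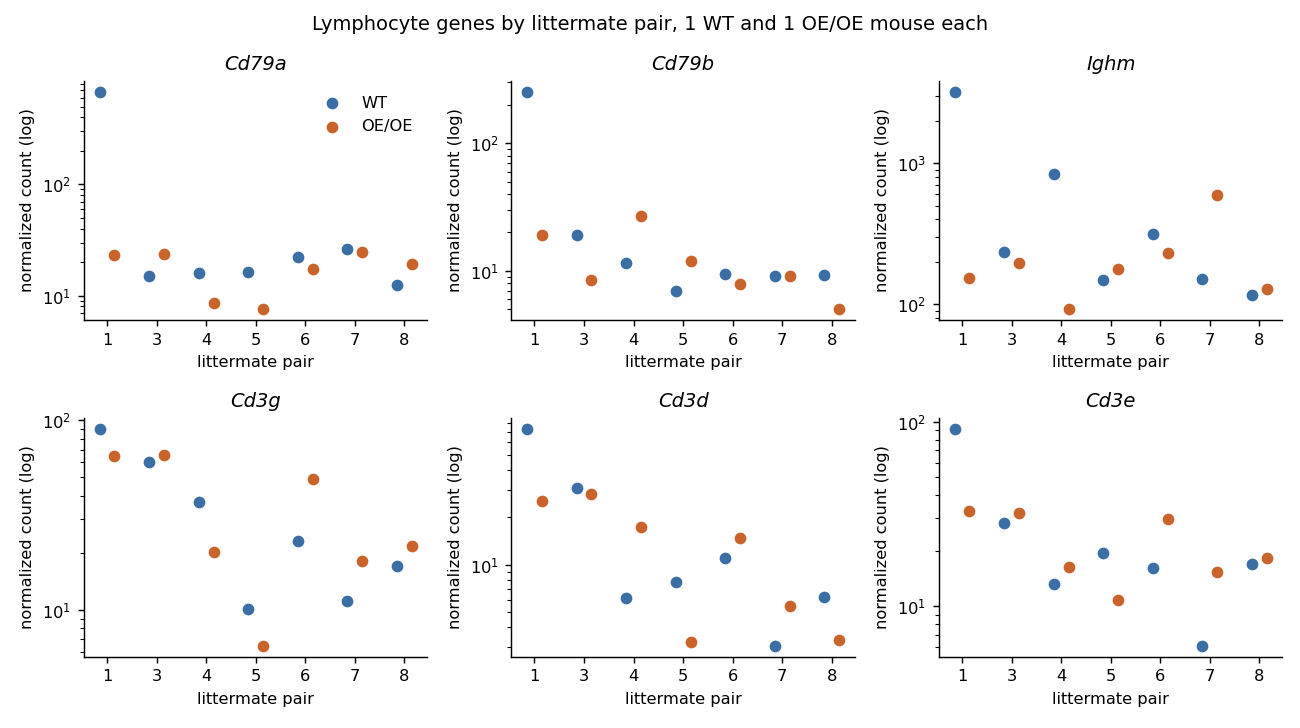
Normalized counts (log axis) of Cd79a, Cd79b, Ighm, Cd3g, Cd3d and Cd3e by littermate pair, with the WT mouse in blue and the OE/OE mouse in orange. For Cd3g and Cd3d both mice of pairs 1 and 3 are high (59.9 to 90.3 and 25.4 to 73.3), whereas for Cd79a only the WT mouse of pair 1 is.

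The genes varied together to a different extent within the classes. Over all 14 libraries the median correlation of log2 values was 0.78 between B cell genes (3 gene pairs), 0.78 between T cell genes (10 gene pairs) and 0.63 between a B and a T cell gene (15 gene pairs). Without the WT mouse of pair 1, over 13 libraries, these medians were -0.12, 0.62 and 0.13. Among the CD3 genes the correlations were 0.78 to 0.81 without that mouse, whereas those of Cd8a fell to 0.22 with Cd2 (from 0.72) and to 0.23 with Cd3d (from 0.58). The counts of Cd79b were low (median 10.5 fragments), and in such counts a weak correlation does not show that genes vary apart. Cd3g and Cd3d had a correlation of 0.80 over the 13 libraries, which share litters and depth.

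Further genes of the same pathways were counted from lists. Of 12 kinases, adaptors and other genes of B cell receptor signalling, 0 were called between genotypes (median log2 fold change -0.05, and 0.05 without pair 1) and 2 differed between pairs, while 8 of 12 were highest in the WT mouse of pair 1. Of 12 genes of T cell receptor signalling, 0 were called between genotypes (median -0.05, and 0.08 without pair 1), and 2 differed between pairs, Lcp2 and Fyb, which encode adaptors downstream of the receptor. In this list 9 of 12 were highest in the WT mouse of pair 1. The median log2 difference of that mouse from the median of the other WT mice was 1.32 for T cell and 0.64 for B cell receptor signalling. Of 19 other T cell genes, Thy1 was called lower in OE/OE (log2 fold change -0.48, and -0.54 and still called without pair 1) and none higher. In that list Ccr7, Trbc2 and Trdc differed between pairs. Thy1 was at 1135 to 2111 normalized counts in WT, far above the CD3 genes, and fibroblasts also express it. Of 10 other B cell genes, H2-Ob, which encodes a chain of a class II chaperone of B cells, was called lower (log2 fold change -0.84), with 257 normalized counts in the WT mouse of pair 1 and at most 39.2 elsewhere. Without pair 1 H2-Ob was at -0.53 and no longer called, and Ly6d was called lower in that list (-1.10). Ly6d was at 2311 to 35593 normalized counts over the libraries, far above Cd79a. It was at 14131 in the WT mouse of pair 1 and thus not highest there, and which cells its counts came from was not tested. Of 3 immunoglobulin genes in the table (Igkc, Igha and Jchain), 0 were called (median log2 fold change -1.23). Without pair 1 the median was -0.19 and again 0 were called.

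Of 10 natural killer and cytotoxic genes, 0 were called between genotypes (median log2 fold change 0.12, and 0.13 without pair 1), and Gzmb, Ccl5 and Xcl1 differed between pairs. Ccl5, a chemokine made by activated T cells, was at 599.7 and 529.5 normalized counts in the WT and OE/OE mice of pair 1 and at 38.6 to 154 in the other 12 mice. Both littermates of pair 1 were thus high in Ccl5, whereas 1 of them was high in Cd79a. Xcl1, a chemokine of natural killer cells and cytotoxic T cells, was at 40.9 and 39.2 in pair 1 and at 32.5 and 44.3 in pair 3. Of the 10 pan-leukocyte genes, Cd53 was called lower in OE/OE (log2 fold change -0.53, and -0.36 and no longer called without pair 1), and Cd52 and Arhgdib differed between pairs. Of the 6 genes listed for lymph node stroma and lymphoid chemokines, Cxcl13 was called lower in OE/OE (log2 fold change -1.22) and none higher. Cxcl13 was also the 1 gene of that list that differed between pairs. Without pair 1 Cxcl13 was at -1.10, and 0 genes of the list were called in either comparison. Over all genes, 3.81% were called between genotypes and 33.3% between pairs.

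The genes whose log2 values were most like those of Cd79a over the 14 libraries included Ccr7 (r = 0.95), Sla (0.92), Rac2 (0.92) and Ncf1 (0.91). Without the WT mouse of pair 1 these were 0.70, 0.77, 0.61 and 0.61. Those most like Cd3e were Trbc1 (0.91), which encodes a constant region of the T cell receptor, H2-DMb2 (0.90), Ptprcap (0.89), P2ry10 (0.89) and Ccl5 (0.87). Without that mouse they were 0.82, 0.78, 0.78, 0.76 and 0.78. The values lost less for Cd3e than for Cd79a, in libraries that share litters, depth and leukocyte content.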

How the data were processed

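Polyadenylated RNA of 14 mice was sequenced, 1 library per mouse. Per the submitters' notes and the methods, the authors mapped read pairs to mm10 with TopHat2 2.0.10, counted fragments per GENCODE M21 gene with HTSeq 0.6.0, kept genes with at least 10 fragments in 7 samples and divided by DESeq 1.18.0 size factors. The deposited values are this signal, normalized counts on a linear scale. Here, 100% of values were whole multiples of 1 fragment (tolerance 0.01), which gave fragments and depth. Over all genes, depth limits precision most for the WT library of pair 1. For the lymphocyte genes that library held 43 (Cd3d) to 1881 (Ighm) fragments, while other libraries held as few as 3 (Cd3d and Cd2).

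Tests were limma 3.58.1 (R 4.3.3, trend) on log2(normalized count + 1), genotype plus pair, with Benjamini-Hochberg adjustment over 16124 genes. A log2(value + 1) scale understates changes of low genes. edgeR 4.0.16 and DESeq2 1.42.0 on recovered fragments, other pseudocounts, filters, scalings, covariates and leaving out pairs were alternatives. For each lymphocyte gene an exact sign-flip test over pairs was added. The limma and edgeR tests were checked on simulated data. Littermates pair by the labels and methods. Their deviations correlated across genes at a median of 0.522 (0.171 to 0.748, n = 7 pairs), and at -0.151 over 42 other combinations. Named genes are the members, the defining or called genes of each list and, for Cd79a and Cd3e, the 5 most correlated genes. The result of 1 gene that this rule names is not reported here. Members and lists were chosen with earlier results of these data known. Igha, Ltb, Tnfsf11, Ccl19, Madcam1, Igkc, Ly6d, Cd14, S100a8, Csf3r and plasma cell gene values were chosen for print after they were seen.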

Additional observations from a re-analysis of the deposited data

Results flagged for a closer look

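In 16 groups of 7 mice (8 lymphocyte genes in each genotype), the highest and the lowest mouse were each set against the nearest other mouse, as the gap divided by the range of log2 values. In 3 groups the gap exceeded Dixon's 95% critical value for 7 samples, where chance alone gives about 1 in 20 groups, or 0.8 of 16. All 3 were the WT mouse of pair 1 as the highest WT mouse, with a gap of 0.817 of the range for Cd79a, 0.732 for Cd79b and 0.731 for Cd8a. The genes come from the same libraries and are not independent. The share was 0.406 for Ighm and 0.192 for Cd3g in the same mouse, below the critical value.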

How the results depend on the processing

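The Cd79a minus Cd3e difference kept its direction and side of the threshold in all 11 alternatives. Of 8 lymphocyte genes, 0 were called between genotypes in every alternative except the adipocyte covariate with the pair as a block (4 genes lower) and, chosen after seeing the data, the same without pair 1 (1 gene higher). The covariate raised the count over all genes from 614 to 3346, and to 3630 without pair 1. Without the replicate block 182 genes were called (82 higher, 100 lower), and 197 when the WT mouse of pair 1 was also left out, with no call among the 8 genes. Each pair left out in turn gave 381 to 1366 genes between genotypes, 3229 to 6390 between pairs, and 1 to 2 of the 8 genes between pairs. The 8-gene count between pairs was 0 with a minimum mean of 50 normalized counts, since this filter removes most of these genes, and 4 with edgeR. The cause of the other shifts was not tested.

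Estimates of all 8 genes changed sign in at least 1 alternative, and among these sign changes Ighm alone passed the threshold. Cd2 was at 0.014 with a pseudocount of 0.1, 0.0076 with median centring, 0.067 with quantile normalization, 0.019 with DESeq2, 0.30 with Ptprc and 0.061 with the macrophage list as a covariate, and 0.49 without the block and without the WT mouse of pair 1. In that last fit Cd3d was at 0.28 and Cd79b at 0.080. Cd3e was at -0.016 with a pseudocount of 10, -0.29 in the paired test on untransformed values, where Cd3g was at -0.015, and -0.49 with the adipocyte covariate. With single pairs left out, Cd2 ranged from -0.22 to 0.45, Cd3d from -0.39 to 0.085, Cd3e from -0.14 to 0.30 and Cd3g from -0.13 to 0.19. With the adipocyte covariate and without pair 1, Cd79a was at 0.092, Cd8a at 0.14, Cd2 at 0.0093 and Ighm at 2.43. The gene lists without pair 1 were examined after seeing the data. Depth limits these genes, since 7 of the 8 had a library with 7 or fewer fragments.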
